A study of Mus musculus with 7 samples.

Results

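Myosin heavy chains are the motor subunits of the class II myosins, and 8 of their genes were followed here in differentiating C2C12 cells: the 6 sarcomeric genes Myh1, Myh2, Myh3, Myh4, Myh7 and Myh8 and the 2 non-muscle genes Myh9 and Myh10. They were taken by gene symbol and make up 8 of the 11642 rows of the expression table. C2C12 is a mouse myoblast line whose cells fuse into multinucleated myotubes when serum is withdrawn. Total RNA was sequenced on day 2 of differentiation from cells transfected with 30 nM scramble siRNA (si-SCR, 2 samples) or with 30 nM of siRNA #1 against the long non-coding RNA lnc-SMaRT (si-SMaRT, 2 samples). The samples of a group were independent populations of the same line, and only 1 siRNA sequence against lnc-SMaRT was sequenced. RNA recovered from C2C12 extracts, also on day 2, with biotinylated probes against lnc-SMaRT (probe set #1) or against LacZ was sequenced once each, next to an input library. The comparisons ask how the levels of the myosin heavy chains differ when lnc-SMaRT is depleted, and whether their transcripts carry pull-down peaks.

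A class II myosin pairs its heavy chains through a long coiled-coil tail, and each heavy chain carries a motor head that hydrolyses ATP on actin and a neck that binds light chains. In the sarcomere these molecules pack into the thick filament, and the heavy chain isoform sets the speed of contraction. Developing muscle first makes the embryonic (Myh3) and perinatal (Myh8) isoforms and later the adult fast isoforms IIa (Myh2), IIx (Myh1) and IIb (Myh4), while Myh7 encodes the slow isoform that is shared with the heart. Myh9 and Myh10 encode the heavy chains of non-muscle myosin IIA and IIB, which drive cell shape, adhesion and division in most cell types.

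The genes Myh3, Myh2, Myh1, Myh4 and Myh8 form a cluster on the plus strand of chromosome 11 of GRCm38, in this order. In GENCODE M21, Myh3 spans chr11:67078300-67102291, Myh2 chr11:67171027-67197517, Myh1 chr11:67200052-67224575, Myh4 chr11:67238029-67260446 and Myh8 chr11:67277124-67308634. Myh10 is on the same chromosome at chr11:68691559-68816632, Myh7 on the minus strand at chr14:54970684-54994626 and Myh9 on the minus strand at chr15:77760587-77842175. The principal transcripts of the 5 clustered genes have near-equal coding lengths, between 5811 and 5826 nt. Coding sequences of Myh1 and Myh2 were 91.0% identical and those of Myh1 and Myh4 90.1%. Myh3 stood further off, with 79.8% to 80.7% identity to the other clustered genes. Myh9 and Myh10 shared 73.7% of aligned positions with each other and 52.9% to 56.0% with the sarcomeric genes.

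The promoters of the clustered genes are shown because these neighbours had different levels and different directions of fold change in the samples described below. Each sequence is the 250 bases before the RefSeq transcription start in GRCm38.p6, written 5′ to 3′. Capitals mark TATAAA on the gene's strand and a run of 14 bases, TTCTAATTATATCC, that was picked because several of these promoters hold it.
Myh3 (chr11:67078050-67078299, + strand): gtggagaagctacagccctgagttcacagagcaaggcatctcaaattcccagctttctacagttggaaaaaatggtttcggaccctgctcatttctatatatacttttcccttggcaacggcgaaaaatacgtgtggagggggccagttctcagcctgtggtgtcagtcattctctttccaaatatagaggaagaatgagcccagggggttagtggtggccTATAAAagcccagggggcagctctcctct
Myh2 (chr11:67170777-67171026, + strand): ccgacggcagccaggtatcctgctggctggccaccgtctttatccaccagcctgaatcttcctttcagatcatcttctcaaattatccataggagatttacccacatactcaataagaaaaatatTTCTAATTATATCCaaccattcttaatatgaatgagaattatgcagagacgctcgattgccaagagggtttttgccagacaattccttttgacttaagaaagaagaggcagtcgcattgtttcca
Myh1 (chr11:67199852-67200101, + strand): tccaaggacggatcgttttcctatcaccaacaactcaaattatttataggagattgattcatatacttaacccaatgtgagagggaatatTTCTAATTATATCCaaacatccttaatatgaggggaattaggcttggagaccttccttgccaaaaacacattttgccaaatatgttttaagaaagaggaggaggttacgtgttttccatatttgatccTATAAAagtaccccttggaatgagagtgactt
Myh4 (chr11:67237562-67237811, + strand): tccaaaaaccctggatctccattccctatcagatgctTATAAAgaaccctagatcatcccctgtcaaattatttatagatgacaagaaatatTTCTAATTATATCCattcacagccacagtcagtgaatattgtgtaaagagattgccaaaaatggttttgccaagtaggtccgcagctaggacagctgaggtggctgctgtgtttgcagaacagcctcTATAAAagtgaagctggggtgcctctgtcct
Myh8 (chr11:67276874-67277123, + strand): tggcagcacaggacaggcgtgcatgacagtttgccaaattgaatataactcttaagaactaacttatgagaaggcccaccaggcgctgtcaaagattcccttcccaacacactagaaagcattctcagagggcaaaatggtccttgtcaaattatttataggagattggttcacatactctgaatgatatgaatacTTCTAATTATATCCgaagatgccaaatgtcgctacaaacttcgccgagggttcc

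The 14-base run was present in Myh2, Myh1, Myh4 and Myh8 and absent from the Myh3 window. Its first base lay at -125 in Myh2, -160 in Myh1, -158 in Myh4 and -54 in Myh8, relative to the start. Of 32536 promoter windows of this length in the RefSeq table, 4 (0.0123%) held the run on either strand, and these were the 4 myosin promoters. Pairs of these 4 promoters shared unbroken runs of 14 to 22 bases, whereas Myh3 shared at most 11 bases with any of them. TATAAA on the gene's strand began at -29 in Myh3, -32 in Myh1 and -31 in Myh4, which also held a second match on this strand at -213. Counting both strands, 4 of the 5 promoters held TATAAA, against 12.3% of all windows. The matches on the opposite strand in Myh1, Myh4 and Myh8 overlapped matches to the MEF2 motif, which was present in these 3 promoters and in 2.89% of all windows. An E-box (CANNTG, the motif of MyoD and myogenin) was present in Myh3, Myh4 and Myh8 and in 66.2% of all windows. A CArG box, the motif of serum response factor, was present only in Myh4 among the 5 and in 1.48% of all windows. These matches describe the letters of the windows, and binding was not measured.

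The targeted RNA was checked first. Lnc-SMaRT had RPKM values (reads scaled to gene length and library size) of 19.1 and 15.9 in si-SCR against 2.88 and 3.65 in si-SMaRT, so the groups did not overlap. The log2 fold change, si-SMaRT over si-SCR, was -2.39 (SE, the standard error, 0.28, limma, adjusted p = 0.000882 by Benjamini-Hochberg over all genes). The effective library sizes that fit the RPKM steps ranged from 11291255 to 14312935 reads. Myotube markers were present in all samples, with a summed RPKM from 3736 in si-SMaRT 2 to 7893 in si-SCR 2. Of the 9 listed symbols 8 had a row, and the other, Mymk, is another name of Tmem8c, which had a row. The summed RPKM was 62.0 to 69.1 in si-SCR and 78.4 to 90.4 in si-SMaRT for the 5 of 6 myoblast markers in the table. For the 4 of 5 smooth muscle markers it was 2248 to 2897 over all samples, and most of it was Acta2, at 2155 to 2777. The other smooth muscle markers were far lower, Tagln at 83.2 to 106, Smtn at 8.63 to 18.8 and Cnn1 at 1.15 to 1.87, and Myh11 had no row. Endothelial and adipocyte markers had no row, cardiac markers only Myh6 and blood cell markers only Cd68, at an RPKM of 0.788 to 1.13. By the paper's read statistics, si-SMaRT 1 lost a far larger part of its read pairs to the rRNA and tRNA filter than any other sample. After this filter si-SMaRT 1 had the fewest pairs left. Whether this bears on the myosin values was not tested. The si-SMaRT samples also differed from each other with GC content. Genes below the GC range of the myosin heavy chains (51.5% to 57.0%) were lower in si-SMaRT 1 than in si-SMaRT 2, with a median log2 difference of -0.29 over 6054 genes. Genes inside the range were higher in si-SMaRT 1, with a median of 0.42 over 2651 genes. All 8 myosin heavy chains were higher in si-SMaRT 1 than in si-SMaRT 2, by 0.06 (Myh2) to 0.73 (Myh9) on the log2 scale, and higher in si-SCR 2 than in si-SCR 1, by 0.01 (Myh7) to 0.43 (Myh1). The fit with the GC trend removed from each sample is therefore given beside the main values.

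Embryonic Myh3 was by far the most abundant myosin heavy chain in every sample. In si-SCR cells its RPKM was 1161 and 1260, with a mean of 1210 ± 69.8 (SD, n = 2), at ranks 39 and 30 among all rows. Next in order of mean RPKM came Myh1 at 139 ± 29.2, Myh9 at 104 ± 16.4, Myh4 at 45.8 ± 7.75 and Myh8 at 14.0 ± 1.59 (SD, n = 2 each). Myh10 at 5.92 ± 0.436, Myh7 at 5.64 ± 0.0210 and Myh2 at 3.67 ± 0.290 (SD, n = 2 each) closed the order. Values of Myh10 and Myh7 overlapped in si-SCR, and all other neighbours in the order were apart in both samples. In si-SMaRT cells the order differed by 1 exchange of neighbours, since Myh9 at 143 ± 50.4 stood above Myh1 at 133 ± 16.7 (SD, n = 2 each). Their values overlapped there, as did those of Myh7 and Myh2, and those of the other neighbours did not.

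**Figure D1:**
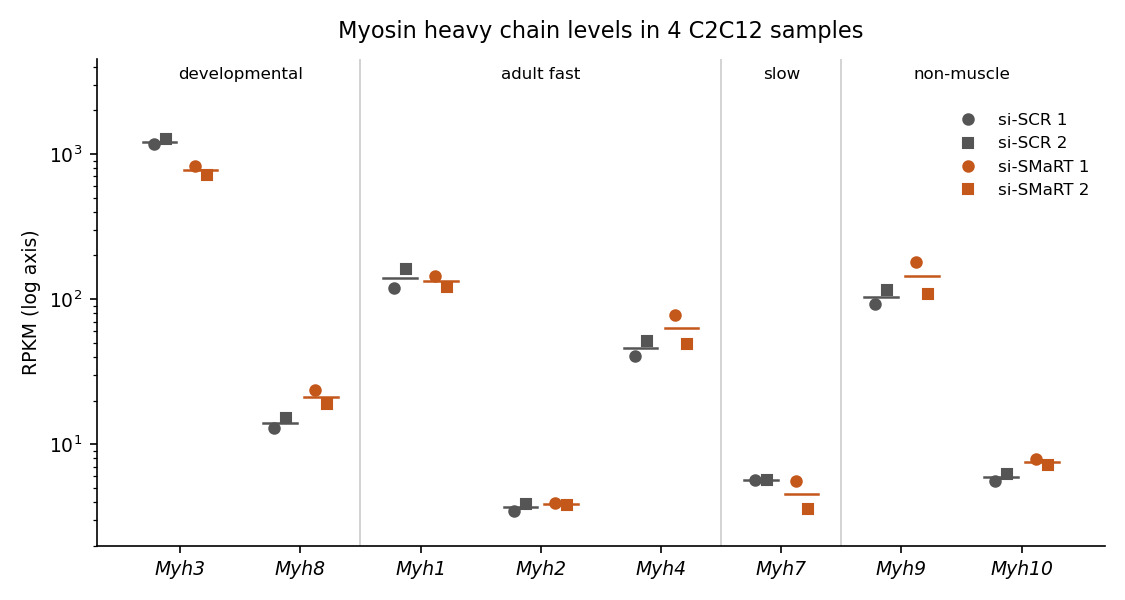
RPKM of the 8 myosin heavy chain genes in each sample on a log axis, with circles for sample 1, squares for sample 2 and bars for the mean of each group. Myh3 sits between 714 and 1260 in all samples, above every other gene, and Myh2 lies between 3.47 and 3.96.

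These levels depend on the gene length behind the RPKM. For Myh3, Myh4 and Myh1 the length used was at most 1.04 times that of the principal transcript, but for Myh8, Myh9, Myh7 and Myh10 it was 1.91, 1.74, 1.38 and 1.34 times as long. Counted per kilobase of the principal transcript, with the same library scaling, reads put Myh9 at 160 and 201 in si-SCR and 311 and 187 in si-SMaRT. Myh1 on the same scale was at 124, 167, 151 and 127, so that Myh9 stood above Myh1 in each of the 4 samples. Myh8 moved to 24.7, 28.99, 45.3 and 36.3, still below Myh4. The fold change of a gene is untouched by this choice.

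The genes also differ in how much of their sequence is their own. Of the 100-base windows of the principal transcript, 9.73% of Myh1, 9.17% of Myh2, 6.61% of Myh8 and 3.85% of Myh4 also occur in another myosin heavy chain transcript. Myh7 shared 11.2% of its windows with the cardiac gene Myh6. For Myh3 the share was 1.15%, and for Myh9 and Myh10 it was 0.314% and 0.299%. How reads that map to several genes were treated in the expression table is not given in the sources used here, so values of Myh1, Myh2, Myh4, Myh7 and Myh8 are uncertain by the reads of these stretches.

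Between the groups, none of the 8 myosin heavy chains passed an adjusted p of 0.05 in the limma fit, where 0.505% of the 11086 genes tested did. At an unadjusted p under 0.05 there were 2, Myh3 and Myh8, against 9.09% of all genes tested. The voom fit on recovered reads also called 0 of the 8, and 0.965% of all genes. The si-SCR and si-SMaRT values were apart for 4 of the 8 genes, Myh3, Myh7, Myh8 and Myh10, against 40.7% of all genes tested. Myh3 and Myh7 were lower in both si-SMaRT samples, a separation found for 20.4% of all genes, and Myh8 and Myh10 were higher, found for 20.2%. The median log2 fold change was 0.21 over the 8 genes and 0.02 over all genes tested. Since these are bulk samples, fewer cells of a type and less RNA per cell cannot be told apart.

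Among the developmental isoforms, the embryonic gene was lower and the perinatal gene higher in both si-SMaRT samples. Myh3 had an RPKM of 1161 and 1260 in si-SCR samples 1 and 2, and of 831 and 714 in si-SMaRT samples 1 and 2. Recovered reads behind these values were 88991, 107840, 56853 and 61941. Both si-SMaRT samples lay below both controls, and the ratio of the groups was 0.637. The log2 fold change of Myh3 was -0.65 (SE 0.29, 95% interval -1.26 to -0.04, adjusted p = 0.5002). With the GC trend removed it was -0.57 (adjusted p = 0.142), and the fits that each lack 1 sample gave -0.76 to -0.54. Myh8 had an RPKM of 12.9 and 15.1 in si-SCR and 23.6 and 19.0 in si-SMaRT, from 1921, 2519, 3143 and 3193 reads. All si-SMaRT values were above the control values. Its log2 fold change was 0.60 (SE 0.27, 95% interval 0.03 to 1.16, adjusted p = 0.508). With the GC trend removed Myh8 was at 0.67 (SE 0.13, adjusted p = 0.0324), and it was the 1 myosin heavy chain called in that fit, where 4.38% of 10004 genes were called. It stayed called with the replicate number as a block in that fit (adjusted p = 0.0377). The ratio of Myh3 to Myh8, which does not depend on library size, was 90.0 and 83.2 in si-SCR and 35.2 and 37.7 in si-SMaRT. The size of this ratio depends on gene length, since the length used for Myh8 was 1.91 times that of its principal transcript. The proportion between the samples does not depend on it.

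Adult fast isoforms showed no common direction. Myh1 (IIx) had an RPKM of 119 and 160 in si-SCR and 145 and 121 in si-SMaRT, so both si-SMaRT values lay between the controls. Its log2 fold change was -0.06 (SE 0.28, 95% interval -0.64 to 0.53, adjusted p = 0.974), and with the GC trend removed it was 0.00018. Myh4 (IIb) had 40.4 and 51.3 in si-SCR and 77.5 and 48.7 in si-SMaRT, where si-SMaRT 1 alone was above the controls. The log2 fold change of Myh4 was 0.43 (SE 0.29, 95% interval -0.18 to 1.04, adjusted p = 0.717). It was 0.77 (adjusted p = 0.00678) without si-SMaRT 2, where 8.5% of all genes tested were called, 0.10 (adjusted p = 0.756) without si-SMaRT 1 and 0.50 (adjusted p = 0.138) with the GC trend removed. Myh2 (IIa), the least abundant member, had 3.47, 3.88, 3.96 and 3.79 across both si-SCR and then both si-SMaRT samples, from 313, 391, 319 and 387 reads. Its groups overlapped, with a log2 fold change of 0.08 (SE 0.28, 95% interval -0.52 to 0.67, adjusted p = 0.965) and of 0.16 (adjusted p = 0.562) with the GC trend removed. Although Myh2 and Myh1 are neighbours with 91.0% identical coding sequences, the RPKM of Myh1 was 34.3, 41.3, 36.6 and 32.0 times that of Myh2 in the 4 samples.

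The slow isoform Myh7 (beta myosin heavy chain) was at 5.62 and 5.65 in si-SCR and 5.58 and 3.56 in si-SMaRT, from 611, 686, 541 and 437 reads. The groups were apart only by the small step between 5.62 and 5.58. Its log2 fold change was -0.33 (SE 0.30, 95% interval -0.96 to 0.29, adjusted p = 0.814). Without si-SMaRT 1, where 26.3% of all genes tested were called, it was -0.65 (adjusted p = 0.0253), and without si-SMaRT 2 it was -0.01. With the GC trend removed it was -0.21 (adjusted p = 0.378). The result for Myh7 therefore rested on si-SMaRT 2.

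Both non-muscle genes had higher mean RPKM in si-SMaRT, and neither passed the test. Myh9 had 92.2 and 115 in si-SCR and 179 and 108 in si-SMaRT, from 15090, 21085, 26106 and 19909 reads. The value in si-SMaRT 2 lay between the controls, and that in si-SMaRT 1 above them. The log2 fold change of Myh9 was 0.43 (SE 0.30, 95% interval -0.20 to 1.05, adjusted p = 0.733). It was 0.79 without si-SMaRT 2 and 0.06 without si-SMaRT 1. Removal of the GC trend gave 0.56 for Myh9 (adjusted p = 0.0707). Without si-SMaRT 2, Myh4 was at 0.77 and Myh8 at 0.75, and without si-SMaRT 1 they were at 0.10 and 0.44. Myh10 had 5.61 and 6.23 in si-SCR and 7.94 and 7.24 in si-SMaRT, from 743, 921, 937 and 1083 reads, with the groups apart. Its log2 fold change was 0.35 (SE 0.27, 95% interval -0.22 to 0.93, adjusted p = 0.780), and 0.38 (adjusted p = 0.133) with the GC trend removed. Myh9 held 94.3%, 94.9%, 95.8% and 93.7% of the summed RPKM of the pair in the same order.

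**Figure D2:**
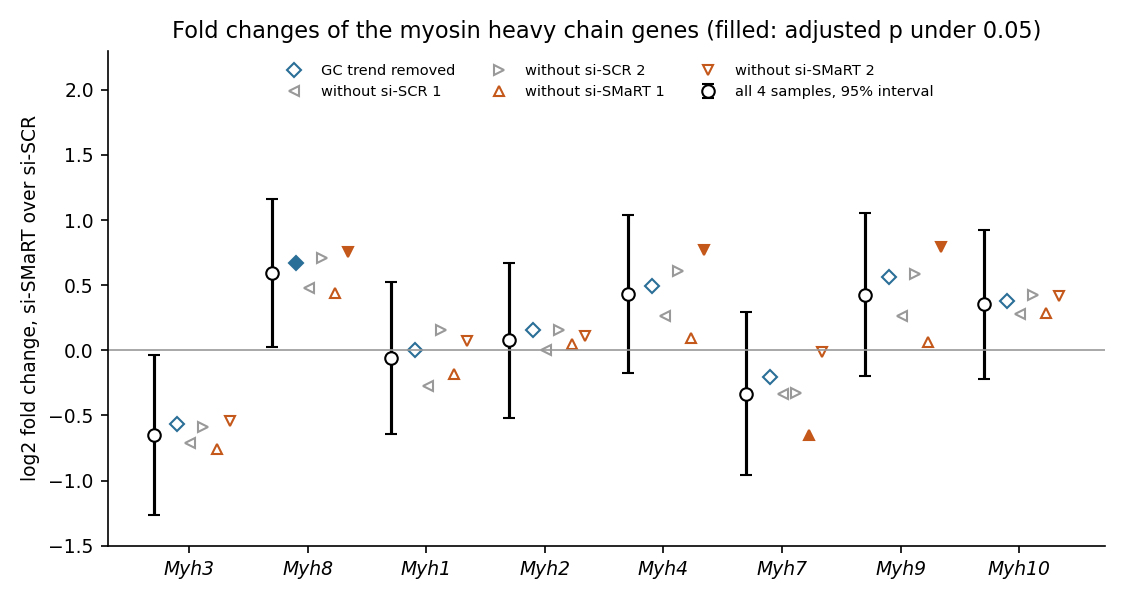
Log2 fold change (si-SMaRT over si-SCR) of each myosin heavy chain gene: black circles with 95% intervals from all 4 samples, diamonds with the GC trend removed, triangles with 1 sample left out, filled where the adjusted p was under 0.05. No circle is filled. Myh3 is below 0 and Myh8 above 0 in every setting drawn, and the orange triangles of Myh4, Myh7 and Myh9 lie far apart.

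The make-up of the sarcomeric transcripts was described by the share of each isoform in their summed RPKM. Myh3 held 86.5% and 84.2% in si-SCR and 76.5% and 78.4% in si-SMaRT, a mean of 85.4% ± 1.62 against 77.5% ± 1.39 (SD, n = 2 each). Both si-SMaRT samples were below both controls, with a difference of -7.90 percentage points. The exact permutation test, two-sided, gave p = 0.33, the smallest that 2 samples against 2 allow. Myh1 held 8.85% and 10.7% in si-SCR and 13.3% in each si-SMaRT sample. Myh4 held 3.01% and 3.43% against 7.13% and 5.35%, and Myh8 0.961% and 1.01% against 2.18% and 2.08%. Myh7 and Myh2 each held at most 0.513% in any sample. A share falls when another rises, so these values are not independent of each other. In summed RPKM the 6 sarcomeric genes reached 1342 and 1496 in si-SCR and 1087 and 911 in si-SMaRT.

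Sarcomeric genes held 93.2% and 92.5% of the summed RPKM of all 8 genes in si-SCR, and 85.3% and 88.8% in si-SMaRT. The means were 92.8% ± 0.512 and 87.1% ± 2.45 (SD, n = 2 each), and the groups did not overlap. The difference was -5.77 percentage points (exact permutation test, two-sided, p = 0.33, again the smallest possible). Counted per principal transcript length, the shares were 89.1% and 87.9% in si-SCR and 77.7% and 82.7% in si-SMaRT, so the gap was wider on this scale. The 8 genes together took 0.951% and 1.08% of the effective library in si-SCR and 0.917% and 0.714% in si-SMaRT, in reads.

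**Figure D3:**
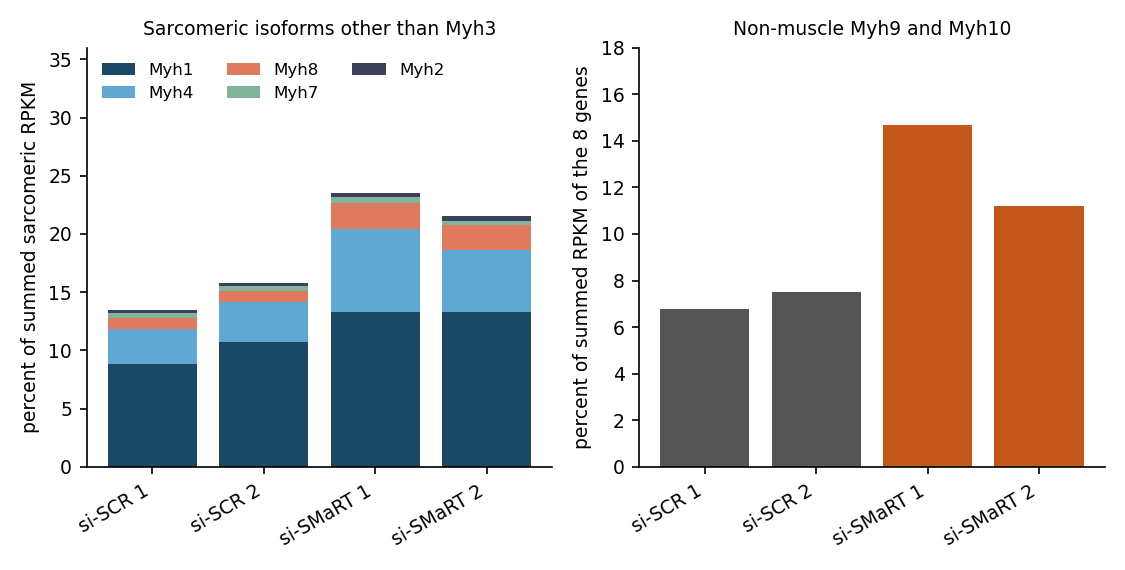
Left, percent of the summed sarcomeric RPKM held by the isoforms other than Myh3, stacked for each sample. Right, percent of the summed RPKM of the 8 genes held by Myh9 and Myh10. The non-muscle share is 6.80% and 7.52% in si-SCR and 14.7% and 11.2% in si-SMaRT.

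Genes whose profile over the 4 samples was most like that of the leading sarcomeric and the leading non-muscle gene were taken from the 6878 others whose mean RPKM was 5 or more, by the root mean square difference of centred log2 values. Nearest to Myh3 were Dnajc4 (0.0393), Polr3gl (0.0410), Egln3 (0.0434), Mrpl54 (0.0499) and Lpcat3 (0.0512). Their log2 fold changes lay between -0.71 and -0.62, and none had an adjusted p under 0.05. Egln3, a prolyl hydroxylase that acts on hypoxia-inducible factors, had an RPKM of 27.4, 30.7, 18.6 and 16.9. Among the nearest to Myh9 were the sarcomeric Myh4 itself (0.0239), Galnt10 (0.0246), Nomo1 (0.0277) and Polr2a (0.0327), the largest subunit of RNA polymerase II. These 4 had their highest value in si-SMaRT 1, as Polr2a did with 4.34, 5.52, 8.53 and 5.38. With 4 samples the likeness is a description only.

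Other class II heavy chains were scarce. Myh11, Myh13, Myh14 and Myh15 had no row. Myh7b, a slow-type sarcomeric gene, had an RPKM of 1.56 and 2.54 in si-SCR and 1.48 and 0.527 in si-SMaRT. The log2 fold change came to -1.07 (SE 0.41, adjusted p = 0.359). It was -1.74 (adjusted p = 5.03e-07) without si-SMaRT 1, where 26.3% of all genes were called, and -0.40 (adjusted p = 0.400) without si-SMaRT 2. Cardiac Myh6 stayed between 0.371 and 0.746 in all samples, from 34 to 57 reads.

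Myosin light chains bind the neck of the heavy chain and stabilise or regulate it. Of 12 listed genes, 8 were tested, and 0 passed the adjusted threshold in either direction by limma, against 0.505% of all genes tested. An unadjusted p under 0.05 in limma was found for 3 (Mylpf, Myl1 and Myl4), against 9.09% of all genes. The voom fit on recovered reads called 1, Myl1, and the fit with the GC trend removed called 2, Myl1 and Myl4, both lower, against 0.965% and 4.38% of all genes in these fits. The median log2 fold change of the list was -0.46, against 0.02 over all genes tested, 4 genes were lower in both si-SMaRT samples (20.4% of all genes) and 1, Myl12b, was higher in both (20.2%). Mylpf, the fast regulatory light chain, had an RPKM of 6687 and 5290 in si-SCR and 3180 and 2650 in si-SMaRT, with a log2 fold change of -1.03 (SE 0.33, adjusted p = 0.242). Myl1, the fast essential light chain, had 906, 713, 357 and 393 and a log2 fold change of -1.10 (SE 0.28, adjusted p = 0.117). Myl6 and Myl9, light chains of non-muscle and smooth muscle myosin, were at -0.39 (adjusted p = 0.772) and -0.12 (adjusted p = 0.942).

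Genes of thick filament assembly and myosin chaperones were mostly lower in si-SMaRT, and 1 of the 15 tested passed the threshold, against 0.505% of all genes. An unadjusted p under 0.05 in limma was found for 7 of the 15, against 9.09% of all genes. The gene that passed was Mybpc2, the fast form of myosin binding protein C, which bridges the thick filament to actin. Its RPKM fell from 1.00 and 0.683 in si-SCR to 0.220 and 0.0964 in si-SMaRT, with a log2 fold change of -1.89 (SE 0.39, adjusted p = 0.03999). The call was lost with a pseudocount of 1 (adjusted p = 0.0692) and with quantile normalization (adjusted p = 0.0955), and Mybpc2 had only 5 reads in si-SMaRT 2. Without either si-SCR sample its mean was below the filter, and it was not tested. Removal of the GC trend brought 6 of the 15 genes past the threshold, where 4.38% of all genes passed, all lower: Mybpc2, the myosin chaperones Unc45b and Smyd1, the M-band gene Myom1, and the muscle RING finger genes Trim63 and Trim54. Of the 15 genes, 12 had a negative log2 fold change and 11 were apart between the groups, all of them lower in si-SMaRT, as 20.4% of all genes were. The list median was -0.60. Mybph, a relative of myosin binding protein C, had 474, 600, 451 and 285 (adjusted p = 0.605), Ttn, the giant sarcomeric spring, 110, 149, 98.5 and 98.2 (adjusted p = 0.745), and Myom2, an M-band protein, 72.6, 84.3, 60.3 and 43.3 (adjusted p = 0.502). Hsp90aa1, a chaperone of the myosin head, had 362 and 319 in si-SCR and 314 and 548 in si-SMaRT.

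Transcriptional regulators of the sarcomeric myosin genes showed both directions. None of 13 tested passed the adjusted threshold in limma (0.505% of all genes), and 2 had an unadjusted p under 0.05 (9.09% of all genes). In both si-SMaRT samples 4 were lower and 5 higher (20.4% and 20.2% of all genes), and the median log2 fold change was 0.21. The voom fit called 0 and the fit with the GC trend removed 2, against 0.965% and 4.38% of all genes. Myogenin (Myog), the factor that drives terminal differentiation, had an RPKM of 1015 and 1114 in si-SCR and 923 and 640 in si-SMaRT (log2 fold change -0.47, adjusted p = 0.696). Myod1 had 54.8, 70.1, 95.9 and 57.7, with overlapping groups. Mef2a, a factor that binds the MEF2 motif named above, had 67.2, 84.0, 92.2 and 127, with a log2 fold change of 0.53 (adjusted p = 0.604).

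Regulators of non-muscle myosin, among them the kinases and the phosphatase that act on its light chain, gave 0 calls among 12 tested genes (0.505% of all genes). None had an unadjusted p under 0.05 by limma (9.09% of all genes). The voom fit and the fit with the GC trend removed called 0 of these regulators too (0.965% and 4.38% of all genes). Their median log2 fold change was 0.26. S100a4, a calcium sensor that binds the Myh9 tail, had an RPKM of 1456, 1109, 1361 and 1310 and a log2 fold change of 0.07 (adjusted p = 0.969). Ppp1r12a, the myosin-targeting subunit of the phosphatase, had 33.2, 36.3, 39.1 and 51.4. The kinase Rock2 had 21.9, 23.3, 23.1 and 38.3, and the phosphatase subunit Ppp1cb 34.2, 32.8, 31.7 and 48.2, each highest in si-SMaRT 2.

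**Figure D4:**
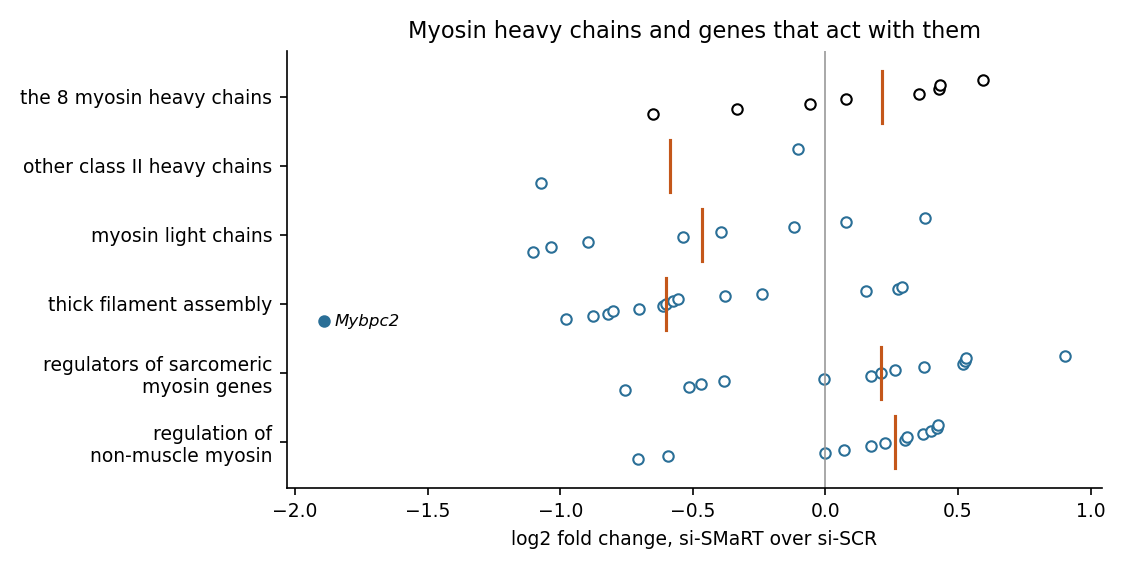
Log2 fold change (si-SMaRT over si-SCR) of each tested gene, by list, with orange bars at the list medians and filled points where the adjusted p was under 0.05. Mybpc2 is the only filled point, and the medians run from -0.60 for thick filament assembly to 0.26 for the regulation of non-muscle myosin.

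Markers of cell state are given beside these values. Of 8 tested myotube markers, 7 had a negative log2 fold change and 5 were lower in both si-SMaRT samples (20.4% of all genes). In limma 0 passed the adjusted threshold (0.505% of all genes), and 2 (Tnnt3 and Ckm) had an unadjusted p under 0.05 (9.09%). Voom and the fit with the GC trend removed each called 1, Ckm, against 0.965% and 4.38% of all genes. The median of the myotube markers was -0.52. Of 5 tested myoblast markers, 2 (Id3 and Ccnd1) passed the adjusted threshold in limma, both higher, against 0.505% of all genes. Myf5 and Id1 had overlapping groups and log2 fold changes of -0.0040 and -0.011. Mki67 was at 0.33 (adjusted p = 0.801), and Pax7 had no row. Id3, an inhibitor of MyoD-type factors, had an RPKM of 2.91 and 3.20 in si-SCR and 12.3 and 7.26 in si-SMaRT, with a log2 fold change of 1.60 (SE 0.30, adjusted p = 0.0232). Ccnd1, the cyclin D1 gene, had 3.96, 3.27, 9.17 and 9.60, with a log2 fold change of 1.36 (SE 0.28, adjusted p = 0.0356). Both calls were lost when either si-SCR sample was left out. The Ccnd1 call was also lost without a filter on low values (0.0531), with quantile normalization (0.0619) and with the replicate number as a block (0.0591). The part of cell state in the myosin values was not tested.

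In the pull-down, 1 of the 345 deposited lnc-SMaRT peaks lay on an exon of these genes, and it lay on Myh3. None of the 336 LacZ peaks lay on any of the 8 genes, and no lnc-SMaRT peak lay in an intron or exon of the other 7. There was 1 library each, so there is no replicate check. The peak is chr11:67095001-67095200 on the plus strand of GRCm38, with a Piranha p-value of 0.00129, and 182 of the 345 peaks (52.8%) have a lower one. It covers 81 bases of a coding exon, chr11:67094955-67095081, which is exon 28 of the principal Myh3 transcript, and 119 bases of the intron after it. Its sequence is shown because it is the only stretch of a myosin heavy chain in the lists, with the exon in capitals.
Myh3 peak: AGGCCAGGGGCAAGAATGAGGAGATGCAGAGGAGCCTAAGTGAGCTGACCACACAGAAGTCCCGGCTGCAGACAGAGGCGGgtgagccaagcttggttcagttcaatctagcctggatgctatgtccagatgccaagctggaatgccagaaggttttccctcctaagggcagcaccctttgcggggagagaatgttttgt
The longest stretch of the peak complementary to a probe of set #1 was 5 bases, where the 257 lnc-SMaRT peaks of this length had 5 to 20 with a median of 7. Its longest stretch complementary to the lnc-SMaRT transcript was 8 bases. Longest identity of the exonic part to another myosin heavy chain transcript was 15 bases, in Myh7b. When most of the peak had to lie on exons, or with peaks of p under 0.001, the count on Myh3 was 0. Myh3 has the highest RPKM of the 8 genes, and whether the peak reflects its abundance was not tested.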

How the data were processed

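Total RNA of 4 samples and RNA of 3 pull-down libraries were used. The authors used Trimmomatic, discarded rRNA and tRNA reads, aligned to GRCm38 with TopHat2, counted reads on Ensembl 77 genes with htseq-count, and deposited RPKM values with TMM-scaled libraries. The deposited p-value of each peak came from Piranha. The authors called LacZ peaks with the input as covariate and lnc-SMaRT peaks against the input and against LacZ, and which of these the lnc-SMaRT list holds is not given in the sources used here. Depth, tests and sequences below were computed from these files.

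Reads behind the RPKM were recovered from gene lengths and effective library sizes for 11641 of 11642 rows, and are lower limits where the GENCODE M21 length could not be used. The tests used limma 3.58.1 in R 4.3.3 (trended prior variance) on log2(RPKM + 0.1) where the mean RPKM was 0.5 or more, with Benjamini-Hochberg adjustment over all 11086 genes and a threshold of 0.05. Fold changes on this scale understate those of low genes. The GC trend was removed per sample by loess (span 0.3). The fit was tested on simulated data. Because the values are RPKM, the study's count test was not used. Peaks counted when they overlapped an exon by at least 1 base on the same strand.

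Genes were named as the 8 myosin heavy chains, list genes past the threshold or among the 2 to 4 with the highest mean RPKM of their list, and the 5 nearest profiles. Mef2c and Mef2d were named beside Mef2a after their values were seen. These genes and lists were chosen with earlier results of these data known. Alternatives were other pseudocounts (1 and 0.01), filters, quantile normalization, no prior trend, the replicate block, each sample left out, GC removal and voom. Principal transcript lengths, a crossed pairing and GC removal with the block were added after the values were seen. Proteins were not analysed here, and results that need a withheld item are not reported here.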

Additional observations from a re-analysis of the deposited data

How the results depend on the processing

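Of 103 refits of the 8 log2 fold changes, 93 kept direction and side of the threshold, 5 passed it and 5 changed sign. The sign changes were in Myh1, at 0.076 with quantile normalization and 0.00018 with the GC trend removed (-0.27 to 0.16 with a sample left out), and in Myh2, at -0.0014 to 0.16 with a sample left out. Passing myosin heavy chains numbered 0 to 3 with a sample left out, 1 with the GC trend removed and 1 with the replicate block added to it. With a sample left out, 1 group has a lone sample that is assumed to vary like the others.

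Over all genes, against 56 calls (20 higher, 36 lower), 37 passed with quantile normalization, 107 with voom, 438 with the GC trend removed, 518 with GC removal and the replicate block, and 23 (without si-SCR 1) to 2911 (without si-SMaRT 1) with a sample left out. The split was 550 higher and 390 lower without si-SMaRT 2. The replicate block alone gave 96 calls (19 higher, 77 lower), 0 of them myosin heavy chains. The numbers share no origin in the labels, the deviations of same-numbered samples correlated at -0.36 across 11086 genes, and the crossed pairing gave 487 calls. The lnc-SMaRT call, and the directions of the sarcomeric and Myh3 shares, held under every alternative run for them. Peaks on Myh3 numbered 0 when most of the peak had to lie on exons and 0 with the peaks under 0.001 only. The cause of these shifts was not tested. With 2 samples a group, no exact test could pass 0.05, and gene-wise intervals span more than 1 log2 unit.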

Other observations

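A long non-coding RNA gene, 2310065F04Rik, lies between Myh3 and Myh2 on the opposite strand and was chosen after its values were seen. Its RPKM was 1.06 and 1.02 in si-SCR and 0.364 and 0.383 in si-SMaRT, from 39, 42, 12 and 16 reads, so the groups did not overlap. In limma the log2 fold change came to -1.26 (SE 0.34, adjusted p = 0.145). With the GC trend removed it was -1.28 (SE 0.23, adjusted p = 0.0296), in a fit that called 4.38% of all genes. A further row looked at beside it, 9430073C21Rik, had 1.09 and 0.554 in si-SCR and 0.326 and 0.900 in si-SMaRT, so its groups overlapped. Its log2 fold change was -0.43 (adjusted p = 0.840), and -0.59 (adjusted p = 0.290) with the GC trend removed.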
